A study of Arabidopsis thaliana with 6 samples.

Results

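The genes of starch synthesis and breakdown were followed in *Arabidopsis thaliana* stems as a set of 41 loci, taken by locus code from the 33602 loci of the count table. The set covers the plastid sugar phosphate translocators, the enzymes that make ADP-glucose, the starch synthases, the branching and debranching enzymes, the kinases and phosphatases of the starch granule, the amylases, and the enzymes that handle maltose and free glucan ends. All 41 loci were in the table and all 41 passed the filter on low counts that left 20296 genes for testing. RNA came from the base of stems of plants that were 15 to 20 cm tall, and the labels describe these stem bases as growing radially. One group carried shoots labelled *smxl4 smxl5*, a double mutant of a pair of SMXL genes known to promote phloem formation, and the other carried wild-type shoots. Shoots of both groups had been grafted onto wild-type roots. Plants of both groups were moved to days of 16 h of light and 8 h of dark before sampling. There were 3 libraries a group. Fragments of 1 cm from 3 stems were combined for each, which the protocol calls 1 biological replicate. The libraries held between 21364628 and 49929595 counts.

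Starch is made in plastids from glucose 6-phosphate, which leaf chloroplasts draw from the Calvin cycle and non-green plastids import through a translocator. Phosphoglucomutase and ADP-glucose pyrophosphorylase turn it into ADP-glucose, from which starch synthases extend glucan chains that branching enzymes branch and isoamylases trim into a crystalline granule. Breakdown begins when dikinases phosphorylate the granule surface, after which beta-amylases release maltose for export to the cytosol. In Arabidopsis stems, starch grains are well known from the endodermis, or starch sheath, where they sediment and serve the sensing of gravity.

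The genes named by the genotype were not lower in the mutant-labelled libraries. *SMXL4* stood at 13.4, 15.3 and 11.2 CPM there (counts scaled to library size) and at 12.1, 10.2 and 11.1 in wild type (log2 fold change 0.26 ± 0.13, SE, edgeR adjusted p = 0.179). *SMXL5* stood at 116, 116 and 82.0 CPM against 112, 97.5 and 99.4 (0.02 ± 0.14, adjusted p = 0.92). The groups overlapped for both genes, so transcript level does not check the labels and the libraries are called mutant-labelled throughout. All log2 fold changes are mutant-labelled over wild type, with their standard error.

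Tissue markers differed between the groups. All 10 markers of photosynthetic tissue were lower, and their summed level ran from 5540 to 6941 CPM in mutant-labelled libraries and from 10182 to 10734 CPM in wild type. All 5 phloem markers (summed 251 to 275 against 537 to 592 CPM) and all 4 xylem markers (summed 1871 to 2347 against 2863 to 3660 CPM) were lower as well. Both vascular tissues were thus well represented in every library, as a stem sample requires. Of the 4 markers of the starch sheath, 0 passed edgeR's test, adjusted or at an unadjusted p under 0.05, and their summed level ran from 108 to 118 CPM in mutant-labelled libraries and from 101 to 112 CPM in wild type. Of that sum, 1 gene held 49.0 to 68.9 CPM over all libraries. The groups did not overlap for 1 of the 4 markers (25.0%), beside 45.3% of tested genes. Of the 4 epidermis markers only the wax gene *CER1* passed, and it was lower (summed level of the list 127 to 146 against 173 to 273 CPM). Among 3 floral markers *AP3* had 0 counts in every library, *AG* had at most 1 count, and *PI* was higher, with a summed level of 0.721 to 2.04 against 0.0605 to 0.328 CPM. In bulk tissue, fewer cells of a type and less RNA per cell cannot be told apart, and the part of these tissue differences in the starch gene results was not tested.

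Of the 41 starch genes, 3 were higher and 6 were lower in mutant-labelled stems at an adjusted p under 0.05, and 32 did not pass. The genes that were higher were the glucose 6-phosphate translocator gene *GPT2*, the starch synthase gene *SS3* and the granule-bound synthase gene *GBSS1*. The genes that were lower were the triose phosphate translocator gene *TPT*, the ADP-glucose pyrophosphorylase genes *ADG1* and *APL1*, the granule-associated phosphatase-like gene *LSF1*, and the amylase genes *BAM1* and *AMY1*. The called share was 22.0%, beside 24.9% of all tested genes. The higher share was 7.32% beside 11.2% of all tested genes, and the lower share 14.6% beside 13.7%. The groups did not overlap for 14 members (34.1%), beside 45.3% of tested genes. The set as a whole therefore changed about as often as the genome at large. The median log2 fold change of the members was -0.11, beside 0.02 for all tested genes, with 31 members below 0 and 9 above.

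*GPT2* was the only member whose change reached 1 on the log2 scale. Of the 32 members that did not pass, 22 had a 95% interval of the log2 fold change within 0.5 of 0. That range also covers the size of some called changes, of which the smallest was 0.36, so it does not show equal levels. The median standard error was 0.11 for the members, equal to that of all tested genes.

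**Figure D1:**
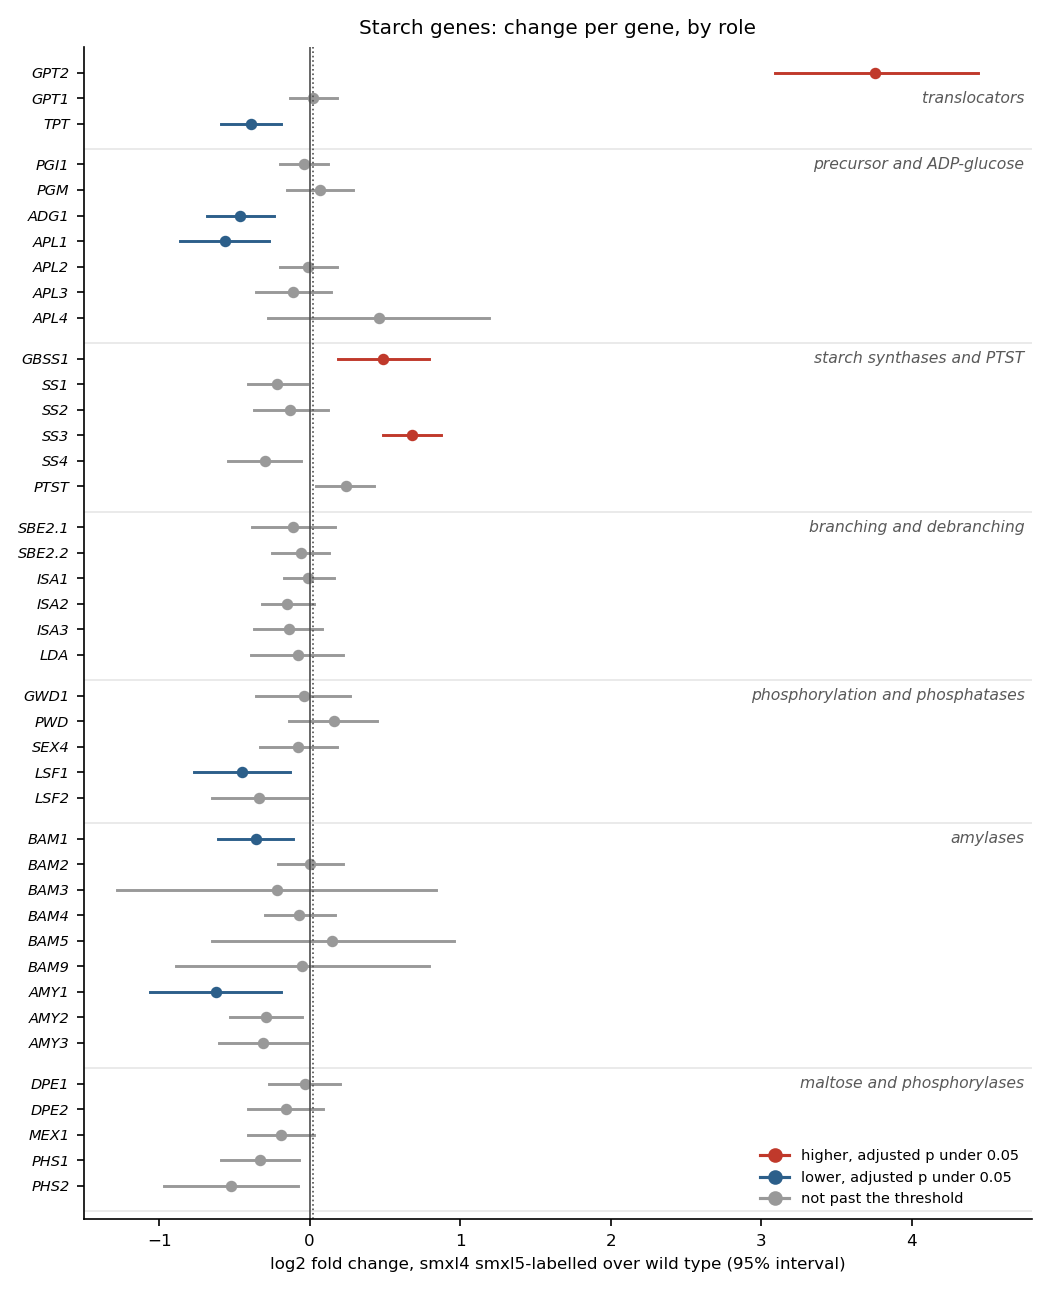
Log2 fold change of each of the 41 starch genes, mutant-labelled over wild type, with its 95% interval from 3 libraries a group, ordered by role; the dotted line marks the median of all tested genes at 0.02. *GPT2* lies alone at 3.76, and the other members lie between -0.62 and 0.68.

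The translocators changed in opposite directions. *GPT2* (AT1G61800; TAIR10.1 chromosome 1, 22824414 to 22826902, plus strand) encodes a plastid glucose 6-phosphate/phosphate translocator known to be induced by sugar. It reached 3.95, 6.14 and 6.04 CPM in mutant-labelled libraries and 0.268, 0.355 and 0.525 CPM in wild type. Every mutant-labelled library was far above every wild-type one, a 13.6-fold difference (log2 3.76 ± 0.29, 95% interval 3.09 to 4.44, edgeR adjusted p = 0.00100). *TPT* (AT5G46110; chromosome 5, 18697235 to 18700900, plus strand) encodes the exporter that carries triose phosphates made in the light out of the chloroplast. It stood at 811, 858 and 760 CPM against 1109, 1036 and 1032 CPM, a 1.31-fold fall with no overlap (log2 -0.39 ± 0.09, adjusted p = 0.0177). This call did not survive the removal of the first mutant-labelled, the first wild-type or the second wild-type library, where adjusted p reached 0.0693.

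*GPT1* (AT5G54800), the second glucose 6-phosphate translocator gene and one needed for pollen and embryo sac development, held its level. It was at 75.2, 73.5 and 69.2 CPM in mutant-labelled libraries, beside 73.4, 70.2 and 70.8 CPM, with a 95% interval of the log2 fold change from -0.13 to 0.18. Per length of exon, *GPT1* exceeded *GPT2* by 278, 201 and 137 times in the wild-type libraries and by 19.3, 12.2 and 11.6 times in the mutant-labelled ones. *GPT2* thus went from 0.358 to 0.724% of the summed level of the pair in wild type to 4.92 to 7.92% in mutant-labelled libraries. *GPT1* remained the main transcript of the pair in every library.

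**Figure D2:**
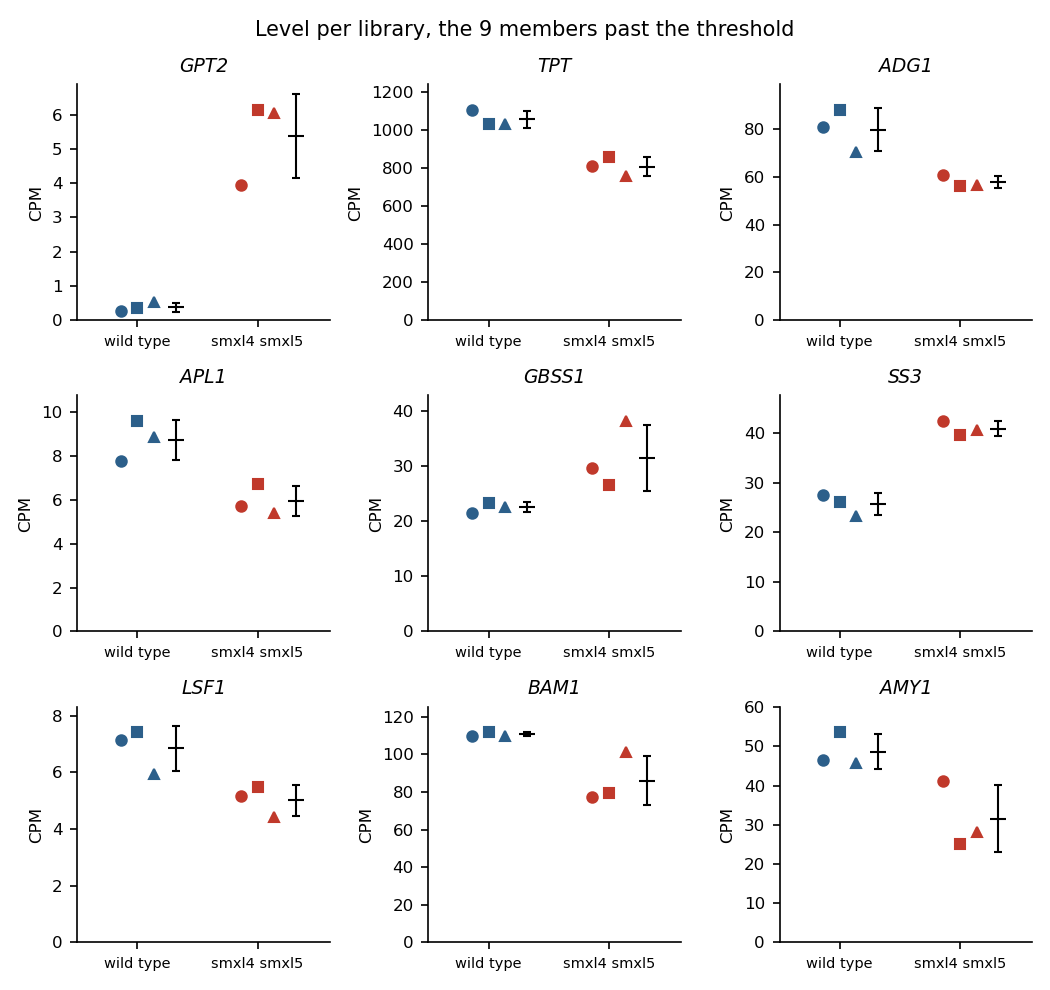
Level in CPM of the 9 starch genes that passed the test, for each of 3 wild-type (blue) and 3 mutant-labelled (red) libraries, with the mean and SD as a bar; circles, squares and triangles are replicates 1, 2 and 3. The groups do not overlap for any of the 9, and as a ratio the gap is widest for *GPT2*, at 0.268 to 0.525 against 3.95 to 6.14 CPM.

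The upstream sequences of the 3 translocator genes are shown because these genes behaved differently: *GPT2* was higher, *GPT1* was level and *TPT* was lower. Each is the 250 bases before the annotated gene start in RefSeq TAIR10.1, on the gene's plus strand, at chr1:22824164-22824413 for *GPT2*, chr5:22260884-22261133 for *GPT1* and chr5:18696985-18697234 for *TPT*. They were searched on both strands for the evening element AAAATATCT and the CCA1 binding site AAAAATCT, both known from genes under the circadian clock, and for the G-box CACGTG, bound by light- and hormone-related transcription factors. Capitals mark a match. The *GPT2* window held an evening element starting at position -82 from the gene start, the *TPT* window held a CCA1 binding site at -85, and none of the 3 motifs was found in the *GPT1* window. Other members held the evening element (*PGM*, *ISA3* and *PWD*) or the CCA1 binding site (*SBE2.2*, *ISA1*, *AMY1* and *DPE2*). Of those, only *AMY1* passed the test, as lower. A link between motif and level was not tested.
GPT2: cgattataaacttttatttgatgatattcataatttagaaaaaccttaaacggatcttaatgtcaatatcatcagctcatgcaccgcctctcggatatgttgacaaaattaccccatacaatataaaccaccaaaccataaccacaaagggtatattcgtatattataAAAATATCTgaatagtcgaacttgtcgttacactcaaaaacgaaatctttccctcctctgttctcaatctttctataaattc
GPT1: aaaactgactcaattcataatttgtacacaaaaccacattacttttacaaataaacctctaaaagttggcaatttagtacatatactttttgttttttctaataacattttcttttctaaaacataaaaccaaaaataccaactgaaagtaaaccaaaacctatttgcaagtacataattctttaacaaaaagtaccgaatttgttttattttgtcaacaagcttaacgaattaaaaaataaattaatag
TPT: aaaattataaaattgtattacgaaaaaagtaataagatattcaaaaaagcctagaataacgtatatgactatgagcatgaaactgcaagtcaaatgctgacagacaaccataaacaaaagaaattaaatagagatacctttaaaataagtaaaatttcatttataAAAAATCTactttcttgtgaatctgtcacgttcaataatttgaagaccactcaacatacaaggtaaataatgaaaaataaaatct

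Among the 7 genes of precursor and ADP-glucose formation, 0 were higher, 2 were lower and 5 did not pass. Both lower genes encode subunits of ADP-glucose pyrophosphorylase, the enzyme at which starch synthesis is regulated. *ADG1* (AT5G48300; chromosome 5, 19570238 to 19572804) encodes the catalytic small subunit and stood at 60.8, 56.3 and 56.6 CPM against 80.8, 87.9 and 70.2 CPM in wild type. All mutant-labelled libraries were below all wild-type ones, a 1.37-fold fall (log2 -0.46 ± 0.09, edgeR adjusted p = 0.0140), although adjusted p was 0.0503 and 0.0569 when wild-type replicates 1 and 2 were left out in turn. *APL1* (AT5G19220; chromosome 5, 6463824 to 6466831), the large subunit that predominates in leaves, fell from 7.80, 9.62 and 8.86 CPM to 5.75, 6.74 and 5.41 CPM (log2 -0.56 ± 0.13, adjusted p = 0.0192). That call was lost when mutant-labelled replicate 1 or wild-type replicate 2 was left out, with adjusted p up to 0.0821. *APL1* also shares 602 exon bases with the non-coding locus AT5G19221 on the opposite strand. Whether reads were counted by strand is not given, so the *APL1* level is less certain.

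The large subunit best represented in these stems was another one. *APL3* (AT4G39210), known from non-photosynthetic tissues and from sugar-fed leaves, made up 72.5 to 79.2% of the summed large-subunit level per length across the 6 libraries, and *APL1* made up 3.96 to 6.27%. *APL3* did not pass the test, at 117, 152 and 128 against 151, 140 and 136 CPM (log2 -0.11 ± 0.11, edgeR adjusted p = 0.488). *APL4* (AT2G21590), which is also known from sink tissues, was highly variable among mutant-labelled libraries at 18.7, 29.6 and 13.3 CPM, beside 12.5, 14.4 and 17.6 CPM in wild type, and its groups overlapped (log2 0.46 ± 0.30, adjusted p = 0.307). *APL2* (AT1G27680), the plastid phosphoglucose isomerase gene *PGI1* (AT4G24620) and the plastid phosphoglucomutase gene *PGM* (AT5G51820) had log2 fold changes of -0.01, -0.04 and 0.07. The intervals of these 3 genes lay between -0.20 and 0.29.

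Of the 6 genes of starch synthases and their partner *PTST*, 2 were higher, 0 were lower and 4 did not pass. *SS3* (AT1G11720; chromosome 1, 3951366 to 3957044) encodes a soluble synthase that elongates longer glucan chains and can also start granules. It stood at 42.5, 39.6 and 40.7 CPM in mutant-labelled libraries and at 27.5, 26.2 and 23.2 CPM in wild type, a 1.6-fold rise with no overlap (log2 0.68 ± 0.08, edgeR adjusted p = 0.00299). *SS3* shares 240 exon bases with the non-coding locus AT1G04873 on the opposite strand, which has no row in the counts. As for *APL1*, its level is less certain because strand handling is not given. *GBSS1* (AT1G32900; chromosome 1, 11920390 to 11923866) encodes the granule-bound synthase that makes amylose. It rose 1.4-fold, from 21.6, 23.4 and 22.7 CPM to 29.7, 26.7 and 38.3 CPM (log2 0.49 ± 0.13, adjusted p = 0.0320). The groups did not overlap for *GBSS1*, but mutant-labelled replicate 3 stood above the other two, and the call was lost when mutant-labelled replicate 1 or any wild-type library was left out, with adjusted p up to 0.108.

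The other synthases did not pass the test. *SS1* (AT5G24300), which makes the shortest chains, stood at 74.9, 68.7 and 76.4 against 87.4, 90.4 and 77.7 CPM (log2 -0.22 ± 0.08, edgeR adjusted p = 0.0985). *SS4* (AT4G18240), known for starting granules, stood at 38.7, 35.4 and 34.7 against 48.8, 46.9 and 38.4 CPM (-0.30 ± 0.10, adjusted p = 0.0676), and *SS2* (AT3G01180), which makes chains of intermediate length, had a log2 fold change of -0.13 ± 0.11. Both *SS1* and *SS4* passed once wild-type replicate 3, the lowest wild-type library for each, was left out (adjusted p = 0.0369 and 0.0153). *PTST* (AT5G39790), the protein that brings the granule-bound synthase to starch, was at 9.34, 9.25 and 8.95 CPM against 8.07, 7.69 and 7.63 CPM, and did not pass although its groups did not overlap (log2 0.24 ± 0.09, adjusted p = 0.0794).

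Read per length, *SS3* went from 8.88% of the summed synthase level in wild type to 14.2% in mutant-labelled libraries, and *GBSS1* from 13.0 to 18.1%, as means of 3 libraries. *SS1* remained the largest share, at 41.9% in wild type and 36.2% in mutant-labelled libraries. These shares and their sum were not tested. The summed level was 76.0 RPKM (CPM per kilobase of exon) in wild type and 75.8 RPKM in mutant-labelled libraries.

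None of the 6 branching and debranching genes passed edgeR's test, adjusted or at an unadjusted p under 0.05, and 0 passed in DESeq2. The branching enzyme genes *SBE2.1* (AT2G36390) and *SBE2.2* (AT5G03650) had log2 fold changes of -0.11 ± 0.12 and -0.06 ± 0.08. The isoamylase genes *ISA1* (AT2G39930) and *ISA2* (AT1G03310), whose products form the complex that trims growing amylopectin, were at -0.01 ± 0.07 and -0.15 ± 0.07. *ISA3* (AT4G09020) and the limit dextrinase gene *LDA* (AT5G04360), which act in breakdown, were at -0.14 ± 0.10 and -0.08 ± 0.13. These intervals all lay between -0.39 and 0.22, and the summed level of the 6 genes ran from 275 to 288 CPM in mutant-labelled and from 267 to 325 CPM in wild-type libraries.

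Of the 5 genes that add phosphate to the granule or remove it, only *LSF1* passed. The dikinase genes *GWD1* (AT1G10760), which starts breakdown by phosphorylating glucan chains, and *PWD* (AT5G26570), which acts after it, were at -0.04 ± 0.14 and 0.16 ± 0.13 on the log2 scale. The phosphoglucan phosphatase genes *SEX4* (AT3G52180) and *LSF2* (AT3G10940) were at -0.08 ± 0.11 and -0.34 ± 0.14, and *LSF2* passed only without mutant-labelled replicate 3 (adjusted p = 0.0440). *LSF1* (AT3G01510; chromosome 3, 198322 to 201810, minus strand) encodes a phosphatase-like protein that binds starch and beta-amylases. It fell from 7.15, 7.43 and 5.95 CPM to 5.15, 5.49 and 4.41 CPM, with no overlap and an adjusted p close to the threshold (log2 -0.45 ± 0.14, edgeR adjusted p = 0.0478). The call held when wild-type replicate 3 was left out but not for any other library, with adjusted p up to 0.169. *LSF1* also shares 343 exon bases on the same strand with the carbonic anhydrase gene *CA1* (AT3G01500), which fell by 2.49 ± 0.24 on the log2 scale, so reads of these bases may have been assigned to either gene and the *LSF1* level is uncertain.

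Of the 9 amylase genes, 0 were higher, 2 were lower and 7 did not pass. *BAM1* (AT3G23920; chromosome 3, 8641181 to 8644449) encodes a plastid beta-amylase known from guard cells and from stress. It was at 77.4, 79.4 and 101 CPM against 110, 112 and 110 CPM, so that mutant-labelled replicate 3 came close to wild type (log2 -0.36 ± 0.11, edgeR adjusted p = 0.0464). *AMY1* (AT4G25000; chromosome 4, 12851795 to 12853845) encodes a secreted alpha-amylase and stood at 41.2, 25.2 and 28.2 CPM against 46.6, 53.7 and 45.7 CPM (log2 -0.62 ± 0.18, adjusted p = 0.0490). The groups did not overlap for either gene, yet the *BAM1* call held without mutant-labelled replicate 3 alone of the 6 libraries, and the *AMY1* call without mutant-labelled replicate 1 alone, with adjusted p up to 0.143 and 0.153 otherwise.

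In mutant-labelled libraries, 3 beta-amylase genes had the widest spread between replicates in the set, with coefficients of variation of 61.6% for *BAM3*, 50% for *BAM5* and 40.6% for *BAM9*, followed by *APL4* at 40.4%. In wild type the same genes were at 13.7, 1.39 and 25.9%, and *GPT2* varied most, at 34.1%. *BAM3* (AT4G17090), the main plastid beta-amylase of starch breakdown at night in leaves, was at 74.7, 56.6 and 172 CPM in mutant-labelled libraries, beside 109, 137 and 109 CPM. The mutant-labelled libraries thus lay on both sides of wild type (log2 -0.22 ± 0.43, edgeR adjusted p = 0.730), and without mutant-labelled replicate 3 the gene passed as lower (-0.85, adjusted p = 0.0106). *BAM5* (AT4G15210), a beta-amylase outside the plastid known from phloem, was the most abundant of the family, with 43.5 to 74.5% of its summed level per length. It was close to constant in wild type at 522, 536 and 525 CPM, while mutant-labelled replicate 1 stood at 924 and the others at 421 and 412 CPM (0.15 ± 0.33, adjusted p = 0.762). *BAM9* (AT5G18670), which lacks catalytic activity, ran from 50.1 to 111 CPM in mutant-labelled and from 58.1 to 99.1 CPM in wild-type libraries. For these 3 genes the intervals reach from -1.28 to 0.96, so changes within that range were not resolved with 3 libraries a group.

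**Figure D3:**
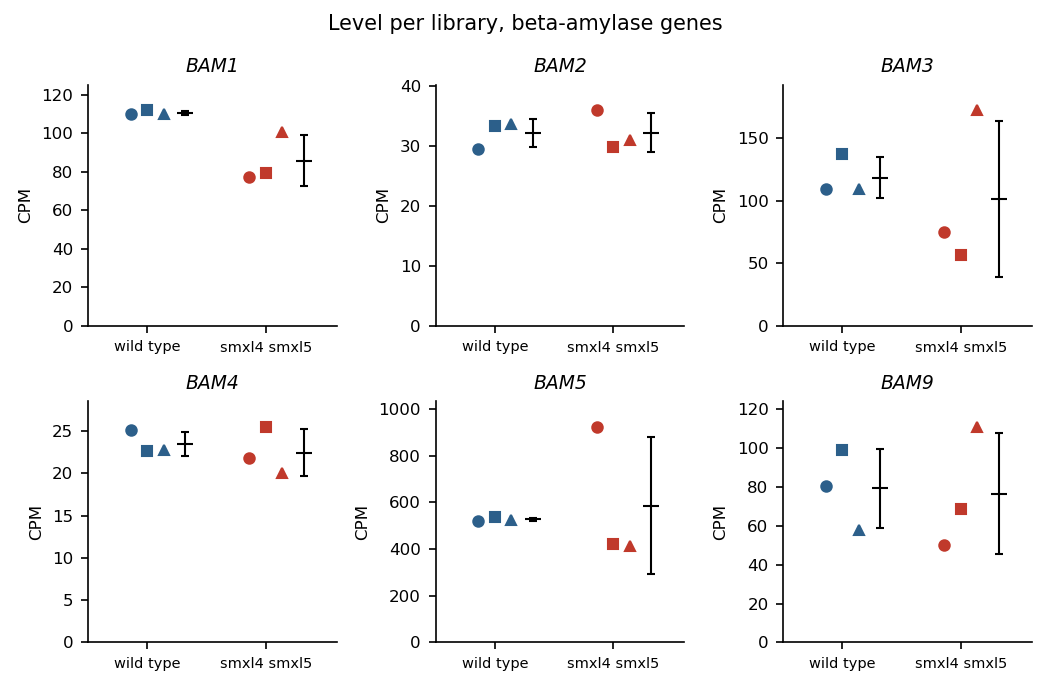
Level in CPM of the 6 beta-amylase genes in each library, wild type in blue and mutant-labelled in red, with mean and SD; circles, squares and triangles are replicates 1, 2 and 3. *BAM3* and *BAM9* are highest in mutant-labelled replicate 3 (172 and 111 CPM), *BAM5* in mutant-labelled replicate 1 (924 CPM), and *BAM2* and *BAM4* vary little.

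The remaining amylases were steadier. *BAM2* (AT4G00490) and *BAM4* (AT5G55700), a catalytically inactive protein needed for normal breakdown, had log2 fold changes of 0.00 ± 0.09 and -0.07 ± 0.10. *AMY2* (AT1G76130) was at 5.99, 6.00 and 6.63 against 8.04, 7.69 and 7.08 CPM, with no overlap and an adjusted p of 0.0773. *AMY3* (AT1G69830), the plastid alpha-amylase, was at 110, 102 and 108 CPM against 141, 150 and 107 CPM. Its wild-type replicate 3 lay among the mutant-labelled values, and without that library *AMY3* passed as lower (adjusted p = 0.0114).

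None of the 5 genes for maltose and glucan ends passed at an adjusted p under 0.05 in edgeR, 2 had an unadjusted p under 0.05 and all 5 had a negative log2 fold change. Those 2 were the phosphorylase genes. *PHS1* (AT3G29320) encodes the plastid form and stood at 81.7, 81.1 and 86.8 CPM against 110, 117 and 87.0 CPM, with the groups just apart (log2 -0.33 ± 0.11, edgeR adjusted p = 0.0692). *PHS2* (AT3G46970) encodes the cytosolic form and stood at 117, 124 and 102 CPM against 164, 208 and 122 CPM, with overlap (-0.52 ± 0.19, adjusted p = 0.0831). Both were past the threshold in DESeq2 (adjusted p = 0.0402 and 0.0198) and without wild-type replicate 3 (0.0107 and 0.0155). The disproportionating enzyme genes *DPE1* (AT5G64860), acting in the plastid, and *DPE2* (AT2G40840), which processes maltose in the cytosol, were at -0.03 ± 0.10 and -0.16 ± 0.11. The maltose exporter gene *MEX1* (AT5G17520) was at -0.19 ± 0.09 (adjusted p = 0.167), and its level is uncertain because the neighbouring locus AT5G17523 holds near-identical stretches.

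The G-box was found upstream of 12 of the 41 starch genes (29.3%), beside 1780 of 27443 gene windows of the same length (6.49%). The evening element was found in 4 (9.76%, beside 2.36%) and the CCA1 binding site in 5 (12.2%, beside 6.69%). Genes of every role but the translocators were among the 12, and 2 of the 9 called genes, *SS3* and *LSF1*, held a G-box. The windows of *PHS1* and *DPE1*, neither of which passed the test, are shown because they hold 3 and 2 copies and overlap no neighbouring gene. They lie at chr3:11252557-11252806 on the plus strand and chr5:25928880-25929129 on the minus strand, and capitals mark G-boxes, at -196, -79 and -62 for *PHS1* and at -35 and -24 for *DPE1*.
PHS1: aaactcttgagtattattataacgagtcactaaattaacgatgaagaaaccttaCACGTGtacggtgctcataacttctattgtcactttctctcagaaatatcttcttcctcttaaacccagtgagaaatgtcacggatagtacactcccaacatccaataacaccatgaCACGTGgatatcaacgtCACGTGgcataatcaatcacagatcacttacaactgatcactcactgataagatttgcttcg
DPE1: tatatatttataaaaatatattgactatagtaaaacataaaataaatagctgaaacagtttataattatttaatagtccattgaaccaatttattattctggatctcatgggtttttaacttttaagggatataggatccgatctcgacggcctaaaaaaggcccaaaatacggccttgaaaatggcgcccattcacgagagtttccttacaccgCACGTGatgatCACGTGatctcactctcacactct

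Compared per length, the starch genes spanned a wide range of levels. *TPT* was highest, with a mean of 460 RPKM in wild type and 352 RPKM in mutant-labelled libraries, followed in wild type by *BAM5* at 200 RPKM and *APL3* at 67.7 RPKM. *GPT2* was lowest in wild type, at 0.208 RPKM, and was the only member with a wild-type mean below 1 CPM. In mutant-labelled libraries its mean of 2.92 RPKM lay above that of *LSF1*, 2.02 RPKM, and below those of *AMY2* and *APL1*, 3.16 and 3.44 RPKM.

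**Figure D4:**
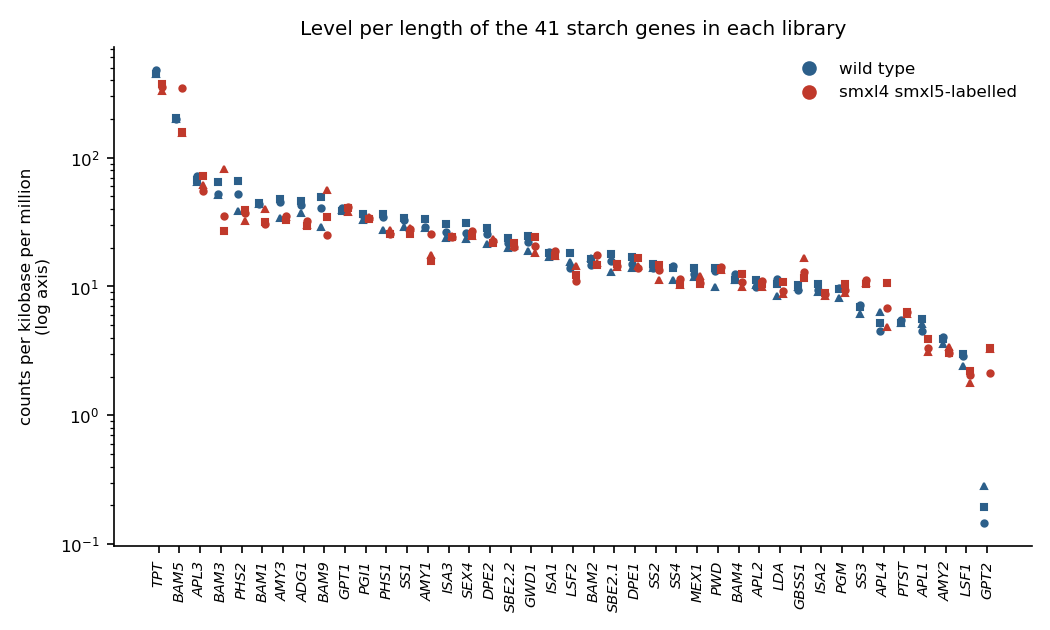
Level of each of the 41 starch genes in RPKM (CPM per kilobase of exon, log axis) in each of 3 wild-type (blue) and 3 mutant-labelled (red) libraries, ordered by the wild-type mean. *TPT* and *BAM5* lead with wild-type means of 460 and 200 RPKM, and *GPT2* is the one gene whose groups stand far apart, at 0.208 against 2.92 RPKM.

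One wild-type library shaped several of the results. Wild-type replicate 3 was the lowest wild-type library for 31 of the 41 starch genes (75.6%), beside 39.3% of all tested genes, and wild-type replicate 2 was the highest for 27 (65.9%), beside 29.4%. Without wild-type replicate 3, 6 further members passed as lower, namely *SS1*, *SS4*, *AMY3*, *DPE2*, *PHS1* and *PHS2*, and 10 members in all were lower. Without wild-type replicate 2, 0 members were lower. Most other removals cut the lower calls too. They left 1 without wild-type replicate 1, and 2, 3 and 6 without mutant-labelled replicates 1, 2 and 3. The fit without wild-type replicate 2 also cut the lower calls among all tested genes from 2771 to 1305, so the loss of calls was not confined to starch genes. Dropping wild-type replicate 3 instead left 2716 lower calls among all tested genes, while the starch set gained. Of the 9 called genes, *GPT2* and *SS3* passed in all 10 alternative fits, and the other 7 lost the call without at least 1 library. The number of lower genes in this set is therefore poorly fixed by 3 libraries a group, while the *GPT2* and *SS3* differences are not tied to any 1 library.

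In the authors' deposited table, 11 of the 41 starch genes had an adjusted p under 0.05, of which 3 were higher and 8 lower in mutant-labelled stems. The 9 genes called by edgeR were among them, and the additional ones were *PHS1* and *PHS2*. That table rests on the same 6 libraries, so it is not an independent check of these calls. The share of all genes past the threshold in it was not counted. DESeq2 run here on the same counts called 2394 genes higher and 2965 lower among all genes, so 11 members are not read as an excess.

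Of 28 further genes of starch and plastid sugar metabolism, 3 were higher, 9 were lower and 16 did not pass. The called share was 42.9%, beside 24.9% of all tested genes, and the lower share 32.1%, beside 13.7%. This list was chosen with earlier results of these data known, so no conclusion is drawn from these shares. Those that were higher included both plastid ATP/ADP carriers, which bring ATP into non-green plastids. *NTT2* (AT1G15500) stood at 170, 173 and 157 CPM against 101, 92.8 and 103 CPM in wild type (log2 0.75 ± 0.08, edgeR adjusted p = 0.00246). *NTT1* (AT1G80300) stood at 280, 288 and 277 CPM against 214, 203 and 215 CPM (0.42 ± 0.07, adjusted p = 0.00764). Both carriers were tightly grouped, with no overlap, and passed in all 10 alternative fits. The gene of cytosolic phosphoglucose isomerase (AT5G42740), named after its values were seen, was the other one (0.25 ± 0.07, adjusted p = 0.0340). Its call held in only 1 of the 6 fits with a library left out, with edgeR adjusted p up to 0.133.

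The further genes that were lower included isoforms present at low level. The phosphoenolpyruvate translocator gene *PPT2* (AT3G01550) stood at 0.299, 0.232 and 1.03 CPM against 1.31, 2.35 and 1.66 CPM (log2 -1.69 ± 0.51, edgeR adjusted p = 0.0499). *APS2* (AT1G05610), related to the pyrophosphorylase small subunit, *GWD2* (AT4G24450), a dikinase outside the plastid, and the beta-amylase gene *BAM6* (AT2G32290) fell by 1.29 ± 0.25, 1.04 ± 0.13 and 1.00 ± 0.27 on the log2 scale (adjusted p = 0.0114, 0.00385 and 0.0327). The *PPT2* and *BAM6* calls held in only 1 and 2 of the 6 fits with a library left out, with adjusted p up to 0.156 and 0.109. The chloroplast fructose bisphosphatase gene *HCEF1* (AT3G54050), of the Calvin cycle and the chloroplast route to starch, stood at 38.5, 53.7 and 42.1 CPM against 71.6, 82.1 and 68.4 CPM (-0.73 ± 0.13, adjusted p = 0.00993). *PGM3* (AT1G23190), a cytosolic phosphoglucomutase gene, stood at 158, 157 and 164 CPM against 271, 261 and 214 CPM (-0.64 ± 0.10, adjusted p = 0.00632). The plastid phosphate and ATP translocator genes as a whole did not move one way. *GPT2*, *NTT1* and *NTT2* were higher, *TPT*, *PPT2* and the xylulose 5-phosphate translocator gene *XPT* (AT5G17630) were lower, and *GPT1* and *PPT1* (AT5G33320) did not pass. *XPT* and *PPT1*, named after their values were seen, had log2 fold changes of -0.33 ± 0.10 (edgeR adjusted p = 0.0429) and -0.11 ± 0.10. The *XPT* call held in only 1 of the 6 fits with a library left out, with edgeR adjusted p up to 0.129. The falls of *HCEF1* and *TPT*, both of the chloroplast, stood beside that of all 10 photosynthetic markers given above, whose part in them was not tested. Falls were not particular to chloroplast genes, since the cytosolic *PGM3* was lower as well (-0.64 ± 0.10).

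**Figure D5:**
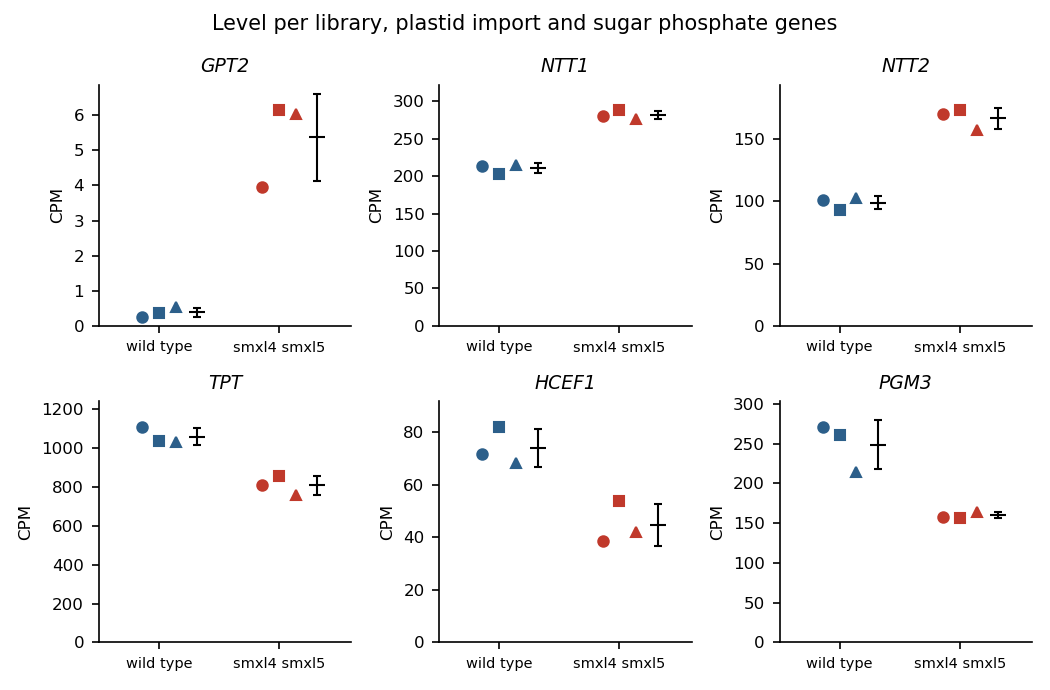
Level in CPM of *GPT2*, *NTT1*, *NTT2*, *TPT*, *HCEF1* and *PGM3* in each library, wild type in blue and mutant-labelled in red, with mean and SD; circles, squares and triangles are replicates 1, 2 and 3. The genes of the top row are higher in every mutant-labelled library, such as *NTT2* at 157 to 173 against 92.8 to 103 CPM, and the genes of the bottom row are lower in every one.

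Starch genes follow the time of day in leaves, and the hour of sampling is not given in the sources used here. Of 11 circadian clock genes, 2 were higher, 1 was lower and 8 did not pass, a called share of 27.3% that is near the 24.9% of all tested genes. The evening gene *ELF4* stood at 0.240, 0.325 and 0.471 CPM against 1.34, 1.51 and 1.23 CPM (log2 -1.95 ± 0.29, edgeR adjusted p = 0.00527), and the morning gene *RVE8* was higher (0.73 ± 0.10, adjusted p = 0.00395). *CCA1*, also a morning gene, stood at 62.4, 80.3 and 60.9 CPM against 50.4, 40.7 and 51.4 CPM (0.51 ± 0.14, adjusted p = 0.0312). The *CCA1* call held in only 1 of the 6 fits with a library left out, with adjusted p up to 0.105. The log2 fold changes of the 8 clock genes that did not pass lay between -0.06 and 0.27. The part of sampling time in the starch gene differences was not tested.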

How the data were processed

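The members and gene lists were chosen with earlier results of these data known. Gene-level counts, not normalized, were deposited by the authors. The submitters' processing notes name the TAIR10 build, TopHat2 2.0.14, FastQC 0.11.7 and DESeq2. How reads were counted, and whether by strand, is not given in the sources used here. Per the labels' protocols, poly(A) RNA was selected and a directional kit with 12 amplification cycles was used. Per the file headers, the authors' deposited comparison table gives each gene's mean signal, log2 fold change, error, test score, p-value and adjusted p-value. Only the fold change and adjusted p-value were used, and comparison with the counts showed that the fold change is wild type over mutant-labelled.

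Groups follow the stem genotype in the labels and replicate numbers follow the titles. All wild-type descriptions give replicate 1, but the protocol speaks of 3 biological replicates for each genotype, on which the wild-type libraries were counted as 3. Chi-square per gene between libraries of a group was 12.2 to 36.4, above sampling noise.

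Counts were tested with edgeR 4.0.16 in R 4.3.3 (filterByExpr with minimum count 10 and minimum total 15, TMM factors, a robust two-sided quasi-likelihood test of stem genotype over 20296 genes, prior count 0.125), with Benjamini-Hochberg adjustment over all genes tested and a threshold of 0.05. CPM and RPKM use TMM-scaled library sizes, and RPKM uses the union of RefSeq exons. The script was tested on simulated data. The 10 alternatives were RLE size factors, no low-count filter, DESeq2 1.42.0, a replicate block and leaving out each library. All 41 members could be named. Of the further list, the 6 called genes with the largest fold changes and the 2 most abundant others were to be named, and of clock and marker lists the called genes. The genes of cytosolic phosphoglucose isomerase, *XPT* and *PPT1* were named outside this rule after their values were seen. The floral markers *AP3* and *AG* were also named outside it. Names, coordinates and sequences come from RefSeq TAIR10.1. Copies were sought with BLAST 2.17.0 (95% identity over 200 bases). Of the 41 members, 14 overlap another annotated gene in exons, 3 of them (*LSF1*, *AMY1* and *PHS2*) on the same strand, and reads there may have been assigned to either gene. The other 11 overlap on the opposite strand only. Those overlapping non-coding loci share 702 bases for *ISA1*, 602 for *APL1*, 518 for *BAM3* and 240 for *SS3*.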

Additional observations from a re-analysis of the deposited data

How the results depend on the processing

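No member changed direction while called. RLE size factors, no low-count filter and DESeq2 gave 6, 5 and 8 lower members, and 3 higher members each. With one library left out, between 0 and 10 members were lower (0 without wild-type replicate 2, 10 without wild-type replicate 3), 2 to 3 were higher, 5 to 10 further genes were lower, and the members' median log2 fold change ran from -0.19 to -0.06. Over all tested genes, the 2282 higher and 2771 lower became 597 to 2423 and 1305 to 3135. Of the 32 members that did not pass, 24 passed in no alternative and 8 in at least 1. Same-numbered libraries deviated together only weakly (correlations 0.044, 0.069 and -0.032, and not every library correlated best with its own number). With 3 libraries a group these correlations cannot decide whether the numbers pair libraries, and the main fit did not pair them. With the replicate block, 2 members were higher and 3 lower, and 1355 and 2001 of all tested genes. Clock gene alternatives were added after seeing the data.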
